A study of Homo sapiens with 6 samples.

Results

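The genes described here are 42 human genes of DNA replication and S phase, chosen by symbol, with none on chromosome 18, out of 58735 genes in a table of RNA sequencing counts. The study compared ovarian carcinoma cells carrying an introduced BARD1 gene with control cells, in 3 libraries each, all labelled 48 h and described as stable cells. BARD1 was introduced by transduction with lentivirus carrying its open reading frame, and GFP-BARD1 was followed by microscopy; the genotype of the comparison cells is given as control, and no source used here names a vector in them. The labels conflict on the material: OVCAR8ip1 appears in the titles and in the culture conditions, SKOV3ip1 is entered as the cell line, and the tissue is entered as SKOV3ip1 tumors. The cell type tag gives high grade ovarian serous adenocarcinoma for both groups. Replicates are labelled biological, but no label ties them to separate cultures or transductions, so a p-value here reflects the spread of these 6 libraries, which may be technical. The treatment text describes 1 BARD1-expressing line.

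Before S phase, the origin recognition complex (ORC), CDC6 and CDT1 load the MCM2 to MCM7 helicase onto replication origins, a step called licensing. At the onset of S phase CDC45 and the GINS complex join the helicase and activate it, primase and polymerase alpha start each new strand, and the sliding clamp PCNA, placed by the RFC clamp loader, holds the polymerases on the template. Most of these genes are transcribed in waves that depend on the cell cycle, under E2F transcription factors that RB-family proteins hold inactive until cyclin-dependent kinases act. In bulk RNA, fewer cells in S phase and less RNA per cell cannot be told apart.

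BARD1, which forms a ubiquitin ligase with BRCA1, checks the labels. Its level in TMM-scaled CPM (counts scaled to a library size of 1000000, adjusted by the trimmed mean of M values) was 17.1, 17.2 and 19.4 in the control libraries and 49.0, 44.3 and 45.7 in the BARD1-expressing libraries. All 3 BARD1-expressing libraries lay above all controls, with a log2 fold change of 1.37 ± 0.081 (standard error, SE); an exact two-sided permutation test gave p = 0.1, the smallest that 3 libraries against 3 allow. The counts do not separate the introduced from the native transcript. Total counts were 21819199 to 23992482 in the control libraries and 12744310 to 24349158 in the BARD1-expressing libraries. Of 11 epithelial and serous carcinoma markers, 9 had enough counts to be tested, 3 were called higher and 1 lower, MUC16 and KRT19 were at 0, and their summed level was 3958 to 4031 CPM in control and 3929 to 4196 CPM in BARD1-expressing libraries. Most of this sum was KRT8, KRT7 and KRT18. The lower gene was PAX8, with means of 143 CPM in control and 91.4 CPM in BARD1-expressing libraries (log2 fold change -0.65). In the same order, the higher genes were KRT7 (842 and 1066 CPM), FOLR1 (2.56 and 3.8 CPM) and WT1 (0.394 and 0.966 CPM). CDH1 had group means of at most 1.08 CPM. Of 7 fibroblast and pericyte markers, 4 were tested, 3 were called higher and 1 lower, DCN was at 0, and the sum was 1015 to 1082 against 839.9 to 887 CPM. Nearly all of this sum was COL1A1, the lower gene, at 1010 to 1076 CPM in control and 825 to 872 CPM in BARD1-expressing libraries. COL1A2 and COL3A1 had group means of at most 0.0262 and 0.0497 CPM. The higher genes LUM and ACTA2 had group means of at most 0.795 and 0.77 CPM, and PDGFRB of at most 13.75 CPM. Of 6 endothelial markers 2 were tested and both were called higher, none was at 0 in every library, and the sum was 1.69 to 2.21 against 5.27 to 7.51 CPM. Most of this sum was TIE1, with means of 1.26 CPM in control and 4.52 CPM in BARD1-expressing libraries. PECAM1, CDH5, VWF, KDR and TEK had group means of at most 0.835 CPM. None of 6 immune markers was tested, CD3E was at 0, and the sum was 0.231 to 0.454 against 0.289 to 1.19 CPM. The part of these markers and of depth in the results below was not tested.

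The replication and S phase genes differed little between the groups. Of the 42 genes, 2 were higher in BARD1-expressing cells (MCM6, a helicase subunit, and RRM2, the small subunit of ribonucleotide reductase) and 7 were lower (the helicase subunits MCM4 and MCM7, the loading factors CDC6 and ORC1, the primase subunit PRIM1, the clamp loader subunit RFC3 and the GINS subunit GINS1). A call means an adjusted p under 0.05 in edgeR's quasi-likelihood test with Benjamini-Hochberg adjustment over 15400 tested genes, and all 42 genes had enough counts to be tested. Of all tested genes, 29.0% were called, 16.5% higher and 12.4% lower, against 21.4% of the 42. Log2 fold changes of the 42, BARD1-expressing over control, ran from -0.30 for PRIM1 to 0.27 for E2F2, with a median of -0.03, and 19 were above 0 and 23 below; over all tested genes the median was -0.003. The median size of the change, whatever its sign, was 0.0957 on the log2 scale for the 42 and 0.178 for all tested genes. Among the 9580 tested genes whose mean level fell within the range of the 42 it was 0.134, with 33.7% called.

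Libraries of the groups did not overlap for 20 of the 42 genes (47.6%), against 40.9% of all tested genes and 45.6% of those 9580. The BARD1-expressing libraries lay above the controls in 6 of the 42 genes, against 21.7% of all tested genes. They lay below in 14 of the 42, against 19.2% of all tested genes. The interval of each difference limits its size: for 42 of 42 genes the 95% interval lay inside a 1.5-fold change in either direction, as it did for 9652 of all 15400 tested genes and for 8400 of the 9580 in the same range of levels. These intervals are per gene and not adjusted for the number of genes. The 1.5-fold bound was chosen with earlier results of these data known.

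**Figure D1:**
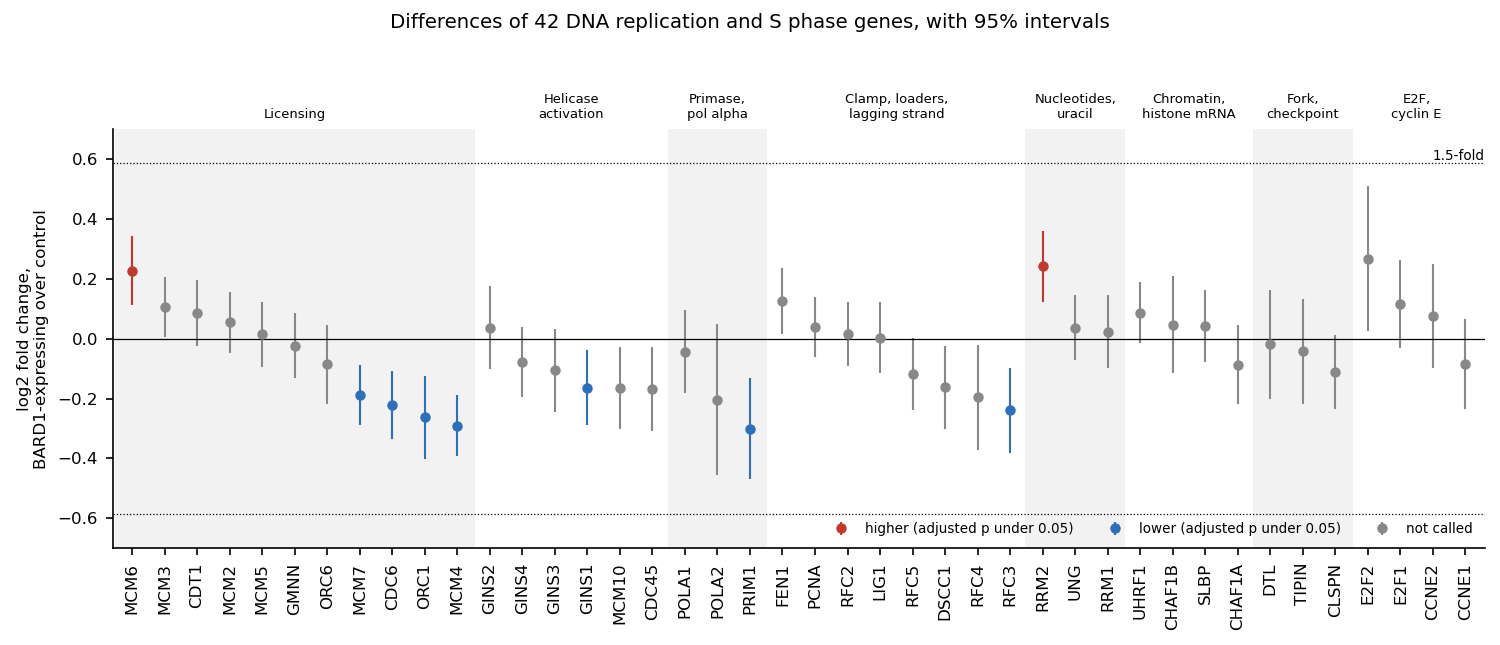
Log2 fold change (BARD1-expressing over control, y axis) of each of the 42 genes (x axis, by role), points with 95% intervals, red for genes called higher, blue for genes called lower and grey for the rest. All intervals lie between the dotted 1.5-fold lines, and the 7 lower calls fall in the licensing, helicase activation, primase and clamp groups.

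Promoter sequences from RefSeq (GRCh38.p14, 250 bases before to 50 after the annotated start) were matched by symbol for 37 of the 42 genes, and not for MCM4, MCM5, CCNE2, GINS4 and DSCC1. They were searched on both strands for E2F-type motifs of 8 bases, spelled TTTCGCGC, TTTGGCGC, TTTCCCGC or TTTGCCGC, which can overlap one another. At least 1 of these was present in 19 of 37 promoters (51.4%), against 556 of 10313 promoters of tested protein-coding genes (5.39%) and 908 of 27305 promoters in the whole table (3.33%). Among the genes called in either direction 5 of 8 promoters held one (MCM6, MCM7, CDC6, GINS1 and RFC3), and among those not called 14 of 29 did. The CCAAT box, bound by the NF-Y factor in many cell cycle promoters, was found in 23 of 37 (62.2%) against 36.4% of tested protein-coding genes. The CHR-type element, spelled TTTGAA or TTCGAA and typical of genes expressed in G2 and mitosis, was found in 2 of 37 (5.41%) against 10.9%, and in 16 of 20 promoters of a list of G2 and mitosis genes. A match describes these letters only.

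The stretches that follow show the E2F-type matches that lie before the start in called genes, with E2F1 for comparison, and the CCAAT boxes of RRM2, where the 8-base search found no match. E2F-type matches of 8 bases, and in RRM2 the CCAAT boxes, are in capitals and all else in lower case. Each stretch reads 5′ to 3′ along the gene, with the start as position 0. The MCM6 stretch also holds 2 CCAAT boxes, at -100 to -96 and -58 to -54, on the opposite strand and left in lower case. RRM2 and E2F1 were added after the matches were seen. The MCM6 stretch covers positions -178 to -53 (chr2:135876496-135876621, minus strand), the distal MCM7 stretch -213 to -154 (chr7:100101551-100101610, minus strand), the proximal MCM7 stretch -35 to -1 (chr7:100101398-100101432, minus strand), the RFC3 stretch -81 to -22 (chr13:33818068-33818127, plus strand), the E2F1 stretch -59 to -1 (chr20:33686386-33686444, minus strand) and the RRM2 stretch -149 to -36 (chr2:10122590-10122703, plus strand).
MCM6: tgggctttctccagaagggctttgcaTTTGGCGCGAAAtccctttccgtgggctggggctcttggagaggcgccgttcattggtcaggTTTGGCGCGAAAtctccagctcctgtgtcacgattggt
MCM7 distal: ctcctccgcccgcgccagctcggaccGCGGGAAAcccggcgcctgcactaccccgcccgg
MCM7 proximal: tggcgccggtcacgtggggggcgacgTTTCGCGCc
RFC3: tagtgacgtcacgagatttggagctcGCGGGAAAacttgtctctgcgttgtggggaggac
E2F1: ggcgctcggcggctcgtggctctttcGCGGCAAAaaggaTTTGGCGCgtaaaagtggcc
RRM2: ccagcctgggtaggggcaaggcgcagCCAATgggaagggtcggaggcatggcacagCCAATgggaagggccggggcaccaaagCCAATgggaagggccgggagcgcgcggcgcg
In MCM6, which was higher, 4 overlapping matches form 2 runs that read as E2F-type motifs on both strands. MCM7, which was lower, holds 2 separate matches, and RFC3, also lower, holds 1. E2F1, which was not called, holds 2 matches close to its start. RRM2, the other gene that was higher, holds 3 CCAAT boxes, and MCM6 holds 2. Among the lower genes MCM7 and CDC6 also hold 3 each, GINS1, ORC1 and PRIM1 hold 1 each and RFC3 holds 0. CDC45 and CHAF1A, which were not called, hold 4 each. The E2F-type matches in CDC6 and GINS1 lie after the start, in transcribed sequence, and are not printed.

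**Figure D2:**
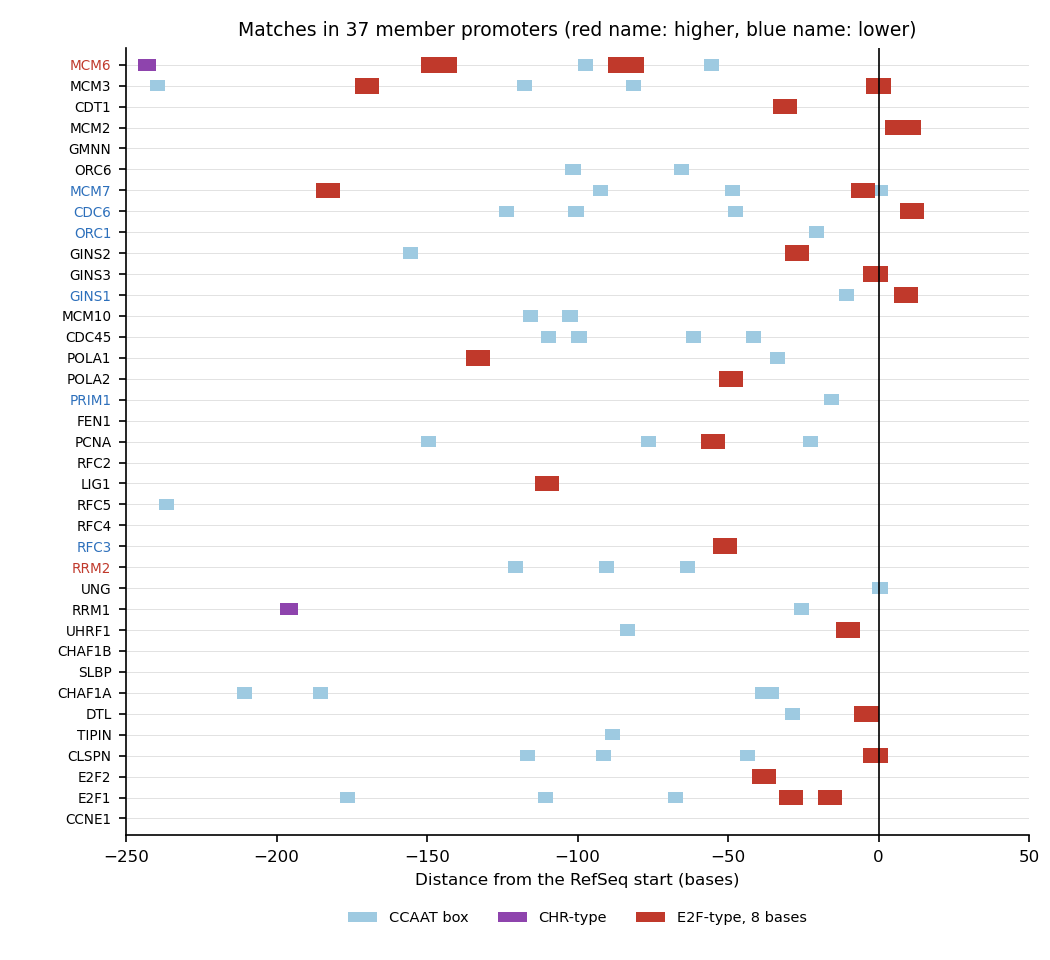
Positions of E2F-type (red), CCAAT (light blue) and CHR-type (purple) matches in 37 promoters, one row per gene, against distance in bases from the RefSeq start (black line); red gene names were higher, blue lower, black not called. E2F-type matches occur in 19 rows, among them genes that were higher, lower and not called.

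Levels per length, given as RPKM (CPM per 1000 bases of exon), placed PCNA first at 219 RPKM as the mean of all 6 libraries, followed by MCM4 at 106, MCM7 at 79.9, UNG at 74.9 and FEN1 at 64.7 RPKM. The least abundant were CCNE2 at 5.996, E2F2 at 2.09 and POLA2, the accessory subunit of polymerase alpha, at 1.5 RPKM. The lengths used are the exon unions in the deposited table. MCM4 was above MCM7 in all 6 libraries, and the order of neighbours such as SLBP (60.9 RPKM) and UHRF1 (60.3 RPKM) is within the spread of their libraries.

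**Figure D3:**
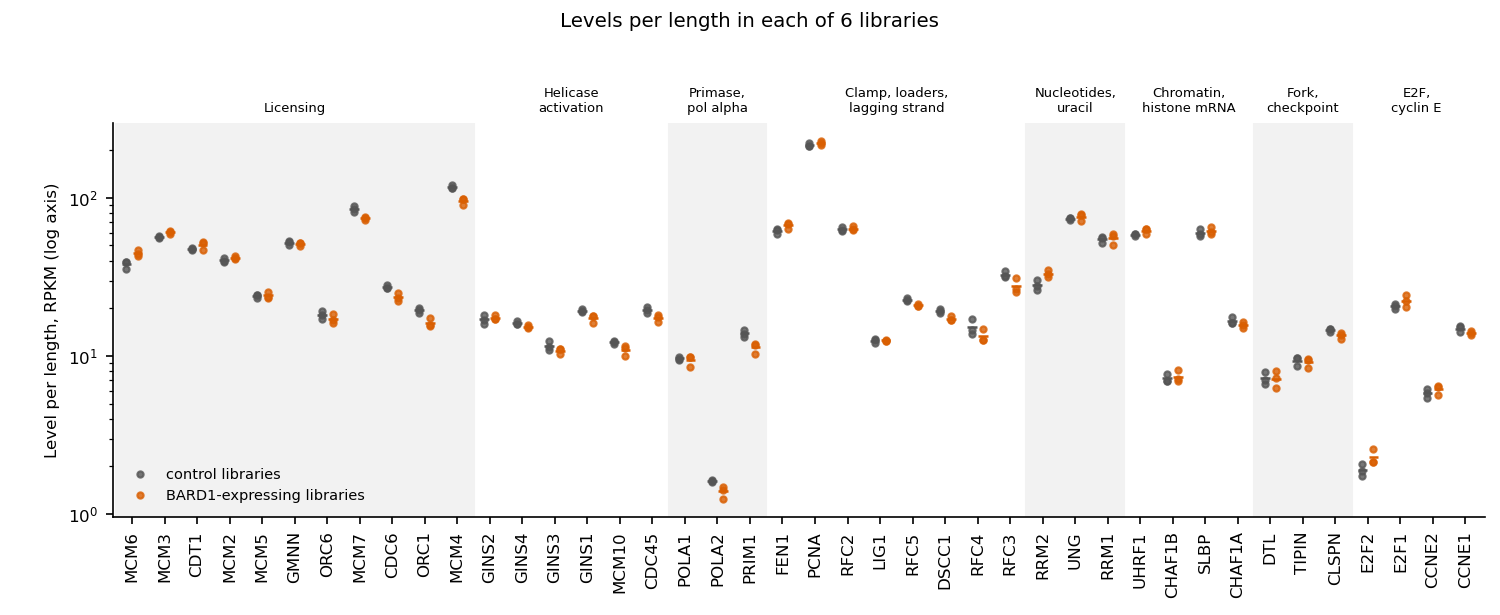
Level per length in RPKM (log axis) of each gene in each library, grey points for control and orange for BARD1-expressing, with a line at each group mean. PCNA is highest at 219 RPKM and POLA2 lowest at 1.5 RPKM, and the groups lie close together for most genes.

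Licensing genes gave 5 of the 9 calls. Of 11 genes 1 was higher (MCM6) and 4 were lower (MCM4, MCM7, CDC6 and ORC1), 45.5% called against 29.0% of all tested genes, with a median log2 fold change of -0.02. These 5 calls were made again under all 12 alternative settings tried, some of them close to the threshold. The highest adjusted p over these settings was 0.0486 for MCM7, 0.0438 for MCM6, 0.0342 for ORC1, 0.0306 for CDC6 and 0.00194 for MCM4. MCM2 to MCM7 form a ring with a copy of each protein, so their transcripts can be set beside one another. MCM4 was at 801, 841 and 807 CPM in the control libraries and at 690.4, 629 and 683 CPM in the BARD1-expressing libraries. All 3 BARD1-expressing libraries lay below all controls. The means were 816 ± 21.4 and 667 ± 33.8 CPM (SD, n = 3 each), a log2 fold change of -0.29 ± 0.049 (SE, adjusted p = 6.36e-05), the smallest p of the 42. MCM7 was at 374, 387 and 359.5 CPM in control and 319.9, 329 and 334 CPM in BARD1-expressing libraries. Again the groups did not overlap, and the log2 fold change was -0.19 ± 0.048 (adjusted p = 0.00434). Introns of MCM7 host the microRNA genes MIR106B, MIR93 and MIR25, whose rows held 6, 7 and 69 counts over all libraries, and of these only MIR25 passed the count filter; it was not called.

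MCM6 went the other way within the same ring. Its level was 146, 162 and 163 CPM in control and 193, 177 and 181 CPM in BARD1-expressing libraries. Every BARD1-expressing library was above every control, with means of 157 ± 9.32 and 184 ± 8.63 CPM and a log2 fold change of 0.23 ± 0.056 (adjusted p = 0.00308). The 24 nearest tested protein-coding genes with at least 5 CPM around MCM6 on chromosome 2 had a median log2 fold change of 0.157, with 17 above 0; the part of this neighbourhood in the MCM6 difference was not tested. Around MCM4 the same median was -0.05, with 6 of 24 above 0, and around MCM7 -0.07, with 8 of 24 above 0. For the other lower genes it was -0.06 around ORC1, -0.08 around RFC3, 0.02 around CDC6, 0.03 around GINS1 and 0.025 around PRIM1. Around RRM2, which was higher, it was 0.01.

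MCM2, MCM3 and MCM5, the remaining ring subunits, were not called. MCM3 had a log2 fold change of 0.10 (adjusted p = 0.115), with 203 to 209 CPM in control and 215 to 224.5 CPM in BARD1-expressing libraries and no overlap. MCM2 was at 0.05 and MCM5 at 0.01 on the log2 scale, both with overlapping libraries.

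Ratios of counts within a library need no scaling between libraries. The ratio of MCM6 to MCM4 counts was 0.182, 0.192 and 0.202 in control and 0.28, 0.281 and 0.265 in BARD1-expressing libraries. The groups did not overlap, and the mean ratio was 1.43 times higher with BARD1. The ratio of MCM6 to MCM7 was 0.42 ± 0.031 in control and 0.562 ± 0.0372 in BARD1-expressing libraries (SD, n = 3 each), also without overlap; both pairs were chosen because these genes were known to differ, so they describe the size only. As shares of the summed MCM2 to MCM7 level per length, MCM4 made up 32.4% ± 0.0761 in control and 28.0% ± 0.915 in BARD1-expressing libraries, MCM7 23.6% ± 0.602 and 21.9% ± 0.655, MCM6 10.6% ± 0.515 and 13.1% ± 0.478, MCM3 15.6% ± 0.17 and 17.7% ± 0.0896, and MCM2 11.2% ± 0.021 and 12.3% ± 0.275. Libraries did not overlap for these 5 shares, and they overlapped for MCM5, at 6.63% ± 0.134 and 7.07% ± 0.499. The shares are parts of one sum, so lower shares of MCM4 and MCM7 by themselves raise the shares of the rest. The MCM2 and MCM3 shares are therefore no separate evidence of a difference, as neither gene was called. Summed over the ring, the level was 1926 ± 47.4 CPM in control and 1783 ± 35.2 CPM in BARD1-expressing libraries.

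CDC6 and ORC1, which bring the helicase to origins, were both lower. CDC6 was at 149.7, 150.1 and 156 CPM in control and 139, 124 and 129 CPM in BARD1-expressing libraries. None of the BARD1-expressing libraries reached the lowest control, and the log2 fold change was -0.22 ± 0.055 (adjusted p = 0.00344). ORC1, the largest subunit of the origin recognition complex, was at 58.8, 61.8 and 63.4 CPM in control and 54.9, 49.1 and 49.6 CPM in BARD1-expressing libraries. The groups did not overlap, with a log2 fold change of -0.26 ± 0.067 (adjusted p = 0.00426). ORC6, the smallest subunit of the complex, was not called, at -0.09 on the log2 scale with overlapping libraries. CDT1, which works with CDC6, had a log2 fold change of 0.08 and its inhibitor geminin (GMNN) of -0.02, neither called. The ratio of CDT1 to GMNN counts was 1.221, 1.253 and 1.226 in control and 1.275, 1.359 and 1.351 in BARD1-expressing libraries. That ratio did not overlap between groups, and it differed by 1.08 times on average.

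Helicase activation genes had 1 lower call among 6 (16.7% called, against 29.0% of all tested genes, 12.4% lower). Of the 6, 5 lay below 0, as did 7767 of all 15400 tested genes. GINS1, a subunit of the GINS complex, was at 77.6, 78.5 and 80.04 CPM in control and 72.9, 65.8 and 72.6 CPM in BARD1-expressing libraries. The groups did not overlap, and the log2 fold change was -0.16 ± 0.061 (adjusted p = 0.0465). This call lay at the threshold: it was lost in 7 of 12 alternatives, with DESeq2, with the replicate block and on leaving out control library 1, 2 or 3 or BARD1-expressing library 2 or 3, where the adjusted p reached 0.179. GINS2, GINS3 and GINS4, the partners of GINS1, were at 0.04, -0.11 and -0.08 on the log2 scale, and none was called; of these only GINS4 did not overlap. The ratio of GINS2 to GINS1 counts was 0.706 ± 0.0419 in control and 0.811 ± 0.077 in BARD1-expressing libraries, without overlap.

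CDC45, the third component of the active helicase, was at 53.3, 55.6 and 58.1 CPM in control and 50.02, 46.9 and 51.9 CPM in BARD1-expressing libraries. The libraries did not overlap, but the log2 fold change of -0.17 ± 0.068 did not pass the test (adjusted p = 0.0652). It was called lower when libraries were scaled by their totals only (-0.18, adjusted p = 0.0487). MCM10, which helps to activate the helicase, was at 65.02, 68.1 and 66.7 CPM in control and 62.9, 61.1 and 54.1 CPM in BARD1-expressing libraries. It likewise did not overlap and was not called, at -0.16 ± 0.066 (adjusted p = 0.0656). Without BARD1-expressing library 1, the shallowest, CDC45, MCM10, DSCC1 and RFC4 were called lower and FEN1 higher, so that the counts over the 42 genes became 3 higher and 11 lower. In that setting 30.1% of all tested genes were called, against 29.0% with all libraries.

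**Figure D4:**
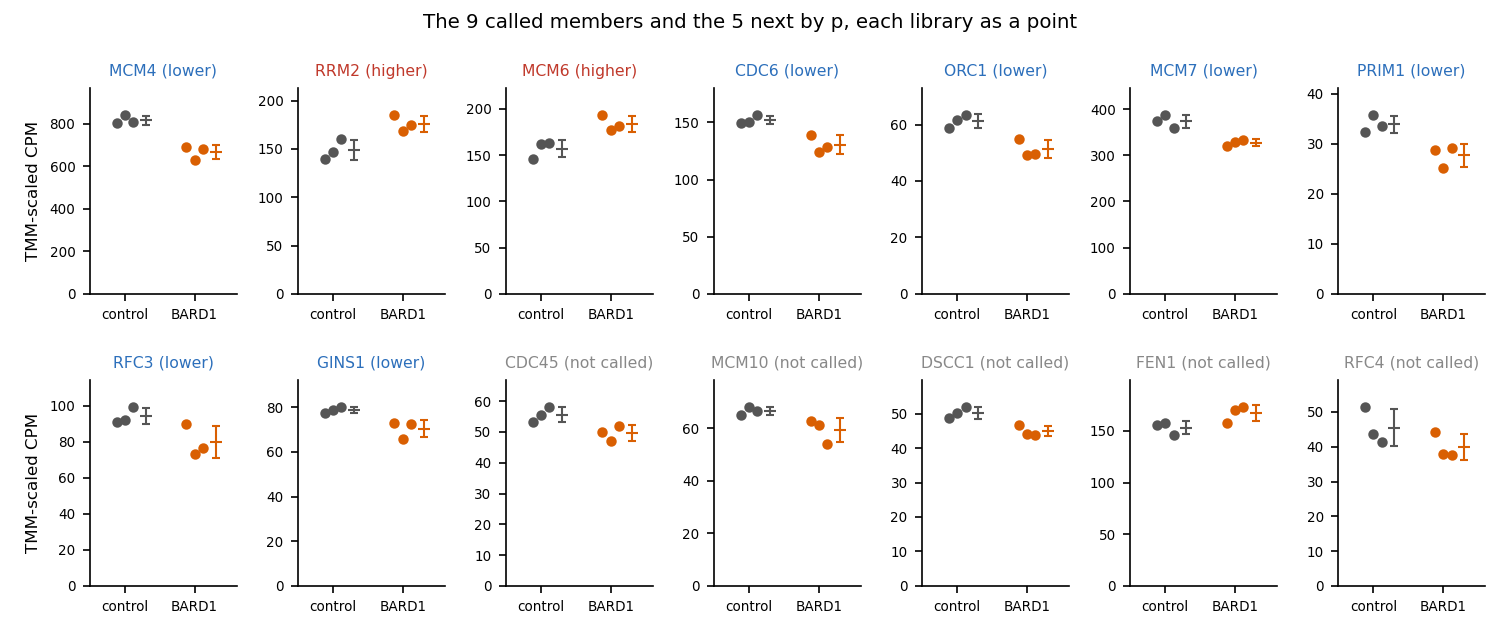
TMM-scaled CPM (y axes from 0) in each control (grey) and BARD1-expressing (orange) library for the 9 called genes and the 5 uncalled genes with the smallest p, with the group mean and SD beside the points. Groups do not overlap in any panel except RFC4, and the log2 fold changes shown run from -0.30 (PRIM1) to 0.24 (RRM2).

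Primase and polymerase alpha, which lay down the primer of each new strand, had 1 lower call among 3 genes, all 3 below 0. That is 33.3% called, against 29.0% of all tested genes, of which 7767 of 15400 lay below 0. PRIM1, the catalytic subunit of primase, was at 32.3, 35.7 and 33.6 CPM in control and 28.7, 25.1 and 29.2 CPM in BARD1-expressing libraries. The groups did not overlap, and its log2 fold change of -0.30 ± 0.081 was the lowest of the 42 (adjusted p = 0.00666). Without control library 2 the adjusted p was 0.0512. PRIM1 shares 33 exon bases on the same strand with NACA, which was called higher, and 14.8% of its exon bases with AC117378.1, which had 6 counts in all; no source used here says how reads on shared bases were counted. POLA1, the catalytic subunit of polymerase alpha, was at -0.04 and POLA2 at -0.20 on the log2 scale (adjusted p = 0.232). POLA2 had only 1056 counts over the 6 libraries, and its 95% interval of -0.46 to 0.05 was the widest of the 42, though its libraries did not overlap. It shares 35.1% of its exon bases with AP000944.2 on the same strand.

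The clamp, its loaders and the genes of lagging strand maturation had 1 lower call among 8 (12.5% called, against 29.0% of all tested genes). RFC3, a small subunit of the clamp loader, was at 90.9, 92.2 and 99.3 CPM in control and 89.97, 73.4 and 76.7 CPM in BARD1-expressing libraries. BARD1-expressing library 1 lay just under the lowest control and the others well below, with means of 94.1 ± 4.5 and 80.03 ± 8.76 CPM and a log2 fold change of -0.24 ± 0.068 (adjusted p = 0.00967). The call was lost without BARD1-expressing library 2 (adjusted p = 0.0597) and without BARD1-expressing library 3 (0.069). RFC4, another loader subunit, was at 51.4, 43.7 and 41.3 CPM in control and 44.3, 37.8 and 37.7 CPM in BARD1-expressing libraries. Control libraries 2 and 3 lay below BARD1-expressing library 1, so the groups overlapped, and the log2 fold change was -0.20 ± 0.085 (adjusted p = 0.0889). RFC4 was called lower with no filter on low counts (adjusted p = 0.0391) and without control library 3 (0.0294). RFC5 was at -0.12 on the log2 scale without overlap (adjusted p = 0.139), and RFC2 at 0.01; neither was called.

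DSCC1, part of an alternative loader with CHTF18, was at 48.6, 50.06 and 51.9 CPM in control and 46.6, 44.2 and 43.9 CPM in BARD1-expressing libraries. The groups did not overlap, and the log2 fold change of -0.16 ± 0.067 was not called (adjusted p = 0.073). FEN1, the endonuclease that trims flaps off lagging strand fragments, was at 155, 158 and 146 CPM in control and 158, 170.4 and 173 CPM in BARD1-expressing libraries. Its libraries just failed to overlap, with a log2 fold change of 0.13 ± 0.054 that was not called (adjusted p = 0.0812). PCNA, at 314 to 328 CPM in control and 317 to 338 CPM in BARD1-expressing libraries, overlapped and had a log2 fold change of 0.04 with a 95% interval of -0.06 to 0.14. LIG1, the ligase that joins the fragments, was at 0.00 with an interval of -0.11 to 0.12.

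Ribonucleotide reductase makes deoxyribonucleotides, and of its 2 subunits among the 42 the small one, RRM2, was called. RRM2 was at 140.0, 146 and 160.3 CPM in control and 185, 169 and 175 CPM in BARD1-expressing libraries. All BARD1-expressing libraries were above all controls, with means of 149 ± 10.4 and 176 ± 8.37 CPM and a log2 fold change of 0.24 ± 0.057 (adjusted p = 0.00235), kept in all 12 alternatives. RRM1, the large subunit, was not called, at 0.02 with a 95% interval of -0.10 to 0.15. The ratio of RRM2 to RRM1 counts was 0.651, 0.627 and 0.676 in control and 0.747, 0.803 and 0.728 in BARD1-expressing libraries. These values did not overlap, and the mean ratio was 1.17 times higher with BARD1; the pair was chosen with the RRM2 difference known. RRM2 shares 20.2% of its exon bases with AC007240.1 on the same strand, a row with 68 counts, and its pseudogene copies RRM2P2 and RRM2P3 had 2 and 3 counts over all libraries. UNG, the glycosylase that removes uracil from new DNA, was at 0.04 on the log2 scale and was not called.

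None of the 4 genes of chromatin assembly and histone mRNA was called, against 29.0% of all tested genes. UHRF1, which guides maintenance methylation of new DNA, had 295 to 304 CPM in control and 304 to 328 CPM in BARD1-expressing libraries, a log2 fold change of 0.09 (adjusted p = 0.201) and libraries that just failed to overlap. CHAF1A and CHAF1B, subunits of chromatin assembly factor 1, were at -0.09 and 0.05, and SLBP, which binds the stem loop of replication-dependent histone mRNAs, was at 0.04 on the log2 scale. The histone mRNAs that SLBP binds mostly lack a poly(A) tail and are not described here, since mRNA was selected with poly(T) beads.

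None of the 3 genes of fork protection and checkpoint was called, against 29.0% of all tested genes. All 3 lay below 0, as did 7767 of all 15400 tested genes. CLSPN (claspin), which relays the ATR signal to CHK1 at stalled forks, was at 77.02 to 80.2 CPM in control and 69.6 to 76.1 CPM in BARD1-expressing libraries, a log2 fold change of -0.11 (adjusted p = 0.17) without overlap. TIPIN, the partner of Timeless in the fork protection complex, was at -0.04, and DTL, the substrate receptor of the ligase that degrades CDT1 in S phase, at -0.02 on the log2 scale.

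The E2F factors and E cyclins, which drive entry into S phase, had no call among 4 genes, against 29.0% called of all tested genes. E2F2 had the highest log2 fold change of the 42 at 0.27, with a 95% interval of 0.02 to 0.51 before adjustment and an adjusted p of 0.0946. Its level was low, 9.46 to 11.4 CPM in control and 11.6 to 14.1 CPM in BARD1-expressing libraries, and the groups did not overlap. E2F1 was at 0.12 with overlapping libraries (adjusted p = 0.246). The cyclins CCNE1 and CCNE2 were at -0.08 and 0.08 on the log2 scale. CCNE2 shares 37.1% of its exon bases with INTS8 on the opposite strand, which was called lower, and no source used here says whether counting used strand. The count ratios CCNE2 to CCNE1, E2F2 to E2F1, CHAF1B to CHAF1A and POLA2 to POLA1 overlapped between the groups.

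Of the 42 genes, 24 share no annotated exon base with another gene in GENCODE 29, among them the called genes MCM4, MCM6, CDC6, ORC1, GINS1 and RFC3. MCM7 shares 8.94% of its exon bases with AP4M1 on the opposite strand, which was not called. Pseudogene copies of PCNA, FEN1 and UNG had at most 2 counts each.

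Other genes of the same process, listed with earlier results of these data known, set the 42 in context. Among 41 other replication factors 2 were called higher and 9 lower, 32 lay below 0 and the median log2 fold change was -0.10. The share called in either direction, 26.8%, is near the 29.0% of all tested genes, but the split by direction is not. Of all tested genes 16.5% were called higher and 12.4% lower, and 7767 of 15400 lay below 0. POLD3, a subunit of polymerase delta, fell from 79.5 ± 1.67 to 59.4 ± 2.24 CPM (log2 fold change -0.42, adjusted p = 8.11e-06), RECQL4 from 142 ± 13.4 to 109 ± 6.74 CPM (-0.38, adjusted p = 8.44e-05) and CHTF18, which forms the loader with DSCC1, from 72.05 ± 9.83 to 49.2 ± 5.00 CPM (-0.54, adjusted p = 0.000484). Among 11 other genes of nucleotide supply 3 were called higher and 4 lower (63.6% called, against 29.0% of all tested genes). TYMS, which makes thymidylate, fell from 108 ± 4.54 to 78.6 ± 3.74 CPM (-0.46, adjusted p = 1.52e-06). TYMS lies on chromosome 18. There 150 of the 158 other tested protein-coding genes with at least 5 CPM lay below 0, with a median log2 fold change of -0.69. The fall of TYMS was smaller than that median. All 14 of its neighbours lay below 0, with a median of -0.54. The part of the chromosome in the TYMS difference was not tested. The salvage kinases DCK and TK1 rose by 0.26 and 0.20 on the log2 scale (adjusted p = 0.00146 and 0.00459), TK1 no longer so without BARD1-expressing library 3 (adjusted p = 0.0646). All 9 S phase checkpoint genes lay below 0 and 3 were called lower, namely WEE1, RAD9A and RAD17 (-0.22, -0.28 and -0.19, adjusted p = 0.0149, 0.036 and 0.0488). Of all tested genes 12.4% were called lower and 7767 of 15400 lay below 0. RAD17 lies on chromosome 5 among 24 neighbours of which 20 were below 0, with a median of -0.14. Around RAD9A 20 of 24 neighbours were above 0, with a median of 0.14, and around WEE1 13 of 24, with 0.02. Calls were lost in 2 of 12 alternatives for WEE1, 6 of 12 for RAD9A and 7 of 12 for RAD17.

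Larger differences lay among 29 tested genes of G1 to S control, of which 11 were called higher and 6 lower, with a median log2 fold change of -0.004, against 16.5% higher and 12.4% lower among all tested genes. CDKN2C, which encodes the CDK4 and CDK6 inhibitor p18, was at 15.4, 18.4 and 14.6 CPM in control and 38.1, 41.3 and 36.2 CPM in BARD1-expressing libraries. CDKN1A, which encodes the CDK inhibitor p21, was at 14.4, 10.9 and 15.3 CPM in control and 28.9, 31.1 and 31.8 CPM in BARD1-expressing libraries. Neither gene overlapped between groups, and the log2 fold changes were 1.26 ± 0.092 (adjusted p = 1.61e-10) and 1.18 ± 0.10 (adjusted p = 4.20e-09). E2F8, a repressor of E2F target genes, rose by 0.67 ± 0.092 on the log2 scale (adjusted p = 4.46e-06). These 3 calls were kept in all 12 alternatives. Some other members of the same families went the other way. E2F7, also a repressor of E2F target genes, was called lower at -0.39 (adjusted p = 7.61e-05) and the inhibitor gene CDKN2B at -0.32 (adjusted p = 0.0245). The inhibitor genes CDKN2D, CDKN1B and CDKN1C were called higher, at 0.83, 0.40 and 0.49 (adjusted p = 1.30e-05, 9.999e-05 and 0.0316). The remaining higher calls were not inhibitor genes: SKP2 (0.31), CCND3 (0.27), CKS1B (0.23), CCND1 (0.23) and CDK2 (0.17). The remaining lower calls were CDC25A (-0.26), MYC (-0.19), E2F4 (-0.19) and MYBL2 (-0.14). CDKN2A was not called, at -0.03. All of these were named after their values were seen. The CDKN2B call was lost with DESeq2 (adjusted p = 0.0775), without control library 1 (0.0996) and without BARD1-expressing library 2 (0.0723). The replication genes of the 42 and the G1 to S genes were measured in the same libraries and the same contrast, so neither is independent support for the other.

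Among 26 G2 and mitosis genes 18 were called higher and 1 lower, with a median log2 fold change of 0.18. The lower gene was NDC80, a kinetochore subunit, which like TYMS lies on chromosome 18 (-0.42, adjusted p = 4.38e-05). All 17 of its neighbours lay below 0, with a median of -0.50, and their part in the NDC80 difference was not tested. TPX2, a spindle assembly factor, rose by 0.42 on the log2 scale, from 494 ± 15.6 to 662 ± 15.5 CPM (adjusted p = 1.96e-07), KIF11, a spindle motor, by 0.40 (adjusted p = 1.996e-06) and CCNB2, cyclin B2, by 0.36 (adjusted p = 1.85e-05). The background of higher calls is 16.5% of tested genes, and the difference between this list and the 42 genes was not tested. Without BARD1-expressing library 3, 11 of the 26 were called higher, and over the 4 other lists above 12 of 90 were called lower in place of 22. Calls over all tested genes also fell in that setting, to 21.0% from 29.0% with all libraries.

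**Figure D5:**
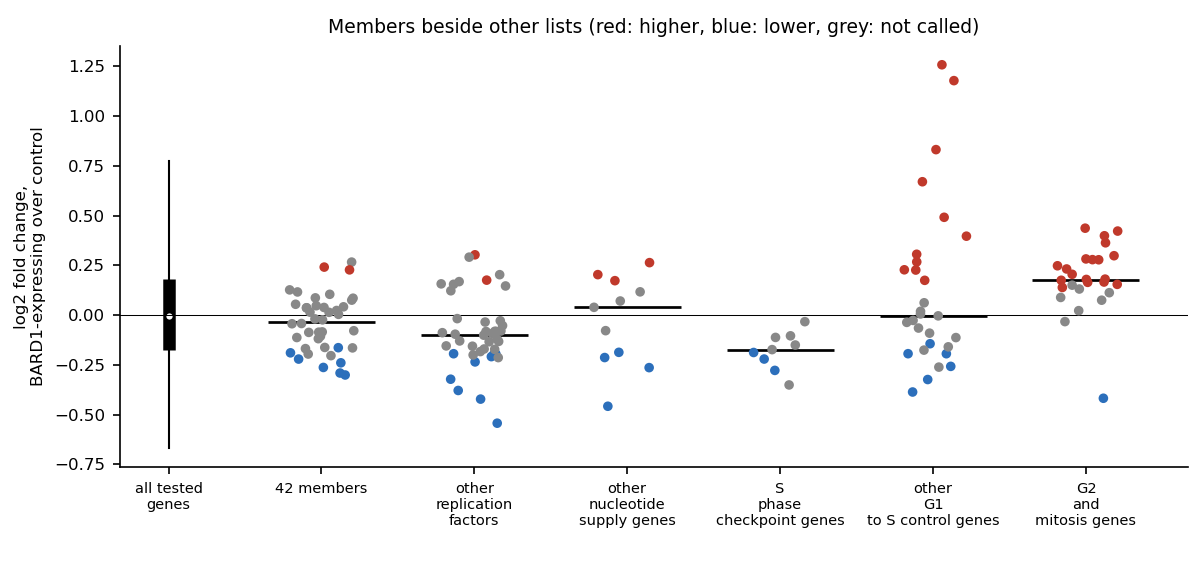
Log2 fold change (y axis, BARD1-expressing over control) of each tested gene in the 42 and in 5 other lists, red higher, blue lower, grey not called, with a line at each list's median; for all tested genes the thick bar spans the middle 50% of genes, the thin bar the 5th to 95th percentile and the white point is the median. The 42 genes lie between -0.30 and 0.27, while CDKN2C and CDKN1A reach 1.26 and 1.18 and most G2 and mitosis genes lie above 0.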

How the data were processed

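RNA of 6 libraries was sequenced. The authors deposited raw read counts per gene, and the build was GRCh38 (hg38), with featureCounts 1.5.0-p3, DESeq2 1.20.0 and HISAT2 2.0.5 listed without role or options, per the submitters' processing notes. Per the labels' protocols, mRNA was selected on poly(T) beads, and directional as well as non-directional libraries are described, so strand use is unknown. No further sample columns were present. For the test (edgeR 4.0.16, R 4.3.3), filterByExpr kept 15400 genes, libraries were scaled by TMM, and a robust quasi-likelihood test on group alone (4 residual degrees of freedom) was adjusted by Benjamini-Hochberg over all tested genes. CPM and RPKM were computed from these counts. A count of 0 allows up to 3 counts, 0.123 to 0.235 CPM, for counting error only. Replicates within a group differed by more than sampling noise (chi-square per degree of freedom 3.41 to 8.11). The 42 genes, the other lists, the markers and the ratios were chosen with earlier results of these data known. Each called gene and the 5 uncalled genes with the smallest p are given in every library, and up to 3 called genes with the smallest p of each other list. Alternatives were DESeq2 1.42.0, other scaling, no filter, non-robust fitting, a replicate block, each library left out, and looser motifs. Exon overlaps are from GENCODE 29, whose gene start and end match the table for 58724 genes.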

Additional observations from a re-analysis of the deposited data

How the results depend on the processing

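Over 12 alternatives RRM2 and MCM6 (higher) and MCM4, CDC6, ORC1 and MCM7 (lower) kept their calls, with an adjusted p of up to 0.0486 for MCM7 and 0.0438 for MCM6. Among the 42 genes 2 to 3 were called higher and 5 to 11 lower on leaving out each library in turn. The 11 came without BARD1-expressing library 1, where 30.1% of all tested genes were called. With DESeq2 2 were called higher and 6 lower, and 21.5% of genes with an adjusted p were called. The other lists had 12 to 17 higher and 12 to 30 lower, G2 and mitosis genes 11 to 17 higher and 1 lower, and all tested genes 3317 to 4755 calls, 4460 with all libraries. A replicate block gave 2 higher and 6 lower among the 42 and 3990 calls in all; same-numbered libraries did not deviate together (correlations -0.112, -0.0315 and -0.00885), so the numbers were not taken to pair libraries.

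Signs that turned belong to uncalled genes near 0. LIG1 was at -0.0018 under relative log expression scaling, -0.006 under library totals, -0.0004 with DESeq2, -0.0096 with no filter, and -0.0212 to 0.018 on leaving out libraries. The same ranges were -0.0346 to 0.0339 for MCM5, -0.0308 to 0.0904 for RRM1, -0.0147 to 0.087 for GINS2, -0.0126 to 0.0375 for RFC2, -0.1038 to 0.0741 for DTL, -0.011 to 0.0828 for SLBP, -0.0843 to 0.0235 for POLA1, -0.0334 to 0.0984 for CHAF1B and -0.0935 to 0.0188 for TIPIN; the cause was not tested. With looser E2F-type motifs of 7 bases (TTNGCGC or TTNCCGC) 83.8% of the 37 promoters and 30.2% of those of tested protein-coding genes held a match. Precision is limited by 3 libraries a group, the shallowest with 12744310 counts.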
